A study of Rattus norvegicus with 25 samples.

Results

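The lipid gland genes described here are 10 genes of fat synthesis and fat handling that sebaceous glands and the Harderian gland are known to use, measured in rat tooth and periodontal ligament after replantation: Elovl3, Mogat1, Thrsp, Sdr16c6, Aadac, Acsm1, Amacr, Cidea, Agps and Sptlc3. They were chosen by symbol from 16881 distinct symbols because, in these same libraries, they led the first principal components or the ratios of replanted to untreated tissue. Each of the 10 was found once, and all 10 passed the filter on low counts that left 11492 genes. Their levels over libraries, their component loadings and their ratios to the untreated library are therefore descriptions and carry no test. The group contrasts use the same libraries, so counts of members set beside the share of all genes are descriptions too.

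The periodontal ligament ties the root of a tooth to the bone of the jaw, and the labelled design sets a long against a short drying time before replantation. Upper first molars of Sprague-Dawley rats were taken out, left dry and put back, and the labels give postnatal day 21 as the age of every group. Delayed replantation (DR) followed 60 min of drying and immediate replantation (IR) followed 5 min. The groups were DR day 7, IR day 7, DR day 3 and IR day 3, with 6 libraries each, and the untreated tissue (NT), with 1 library whose treatment and time are both given as control. No group carried a genetic change. The labels do not say whether libraries came from separate animals or whether day 21 is the age at surgery, so p-values measure only the spread between these libraries, and NT may differ in age.

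Sebaceous glands, which open beside hairs, and the Harderian gland, a gland in the orbit of rodents, release lipid made inside their own cells. Acyl chains are built and lengthened, then joined to glycerol, long-chain alcohols or sphingoid bases, and stored in droplets before release. The rodent Harderian gland is also known for ether-linked glycerolipids and for porphyrin, an intermediate of heme synthesis. Neither gland is part of a tooth or its ligament.

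The members lie on 6 chromosomes, with Thrsp, Acsm1 and Elovl3 on chromosome 1, Amacr and Aadac on 2, Agps and Sptlc3 on 3, Sdr16c6 on 5, Mogat1 on 9 and Cidea on 18. All 10 had a promoter in the RefSeq table of GRCr8, which was used for names, neighbours and sequence only because it is a later build than those in the processing notes. The 250 bases before the start are shown for the 4 members whose window holds no annotated gene, since these genes shared 1 pattern over the libraries. They lie at chr1:254938481-254938730 (plus strand) for Elovl3, chr9:87429177-87429426 (plus) for Mogat1, chr1:161138965-161139214 (minus) for Thrsp and chr18:63164567-63164816 (plus) for Cidea. Sequences run 5′ to 3′ on the strand of the gene. Capitals mark the CCAAT box, the GC box GGGCGG and the nuclear receptor motif AGGTCA, on either strand. On the other strand they read ATTGG for the first, CCGCCC for the second and TGACCT for the last.
Elovl3: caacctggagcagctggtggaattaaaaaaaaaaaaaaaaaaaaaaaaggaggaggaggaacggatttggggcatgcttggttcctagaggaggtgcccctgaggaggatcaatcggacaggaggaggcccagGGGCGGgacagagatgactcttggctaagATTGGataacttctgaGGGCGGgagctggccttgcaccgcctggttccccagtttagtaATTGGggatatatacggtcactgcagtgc
Mogat1: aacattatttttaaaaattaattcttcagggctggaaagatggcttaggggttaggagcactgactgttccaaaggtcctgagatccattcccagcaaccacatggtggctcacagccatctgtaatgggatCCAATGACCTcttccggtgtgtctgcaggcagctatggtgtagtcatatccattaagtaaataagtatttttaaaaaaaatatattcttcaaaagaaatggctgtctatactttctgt
Thrsp: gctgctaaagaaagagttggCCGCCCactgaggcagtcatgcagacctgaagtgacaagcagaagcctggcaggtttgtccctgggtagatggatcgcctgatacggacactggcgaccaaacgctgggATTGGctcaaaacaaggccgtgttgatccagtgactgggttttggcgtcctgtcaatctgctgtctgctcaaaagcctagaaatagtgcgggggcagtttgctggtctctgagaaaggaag
Cidea: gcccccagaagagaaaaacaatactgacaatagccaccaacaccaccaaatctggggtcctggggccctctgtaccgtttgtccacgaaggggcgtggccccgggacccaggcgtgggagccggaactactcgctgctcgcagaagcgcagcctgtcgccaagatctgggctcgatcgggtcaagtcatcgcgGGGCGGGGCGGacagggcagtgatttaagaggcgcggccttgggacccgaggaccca

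Elovl3 held CCAAT at 2 places on the other strand and GC boxes at 2 on its own strand, and Thrsp held 1 of each on the other strand. In Mogat1 a CCAAT box overlapped by 1 base the nuclear receptor motif on the other strand, and Cidea held 2 overlapping GC boxes. Over all members, CCAAT occurred in 6 of 10 windows, against 34.0% of 33469 RefSeq windows of that length, the GC box in 5 of 10 against 30.5%, and AGGTCA in 2 of 10 against 14.1%. TCACNCCAC, a sterol regulatory element, was found in Sptlc3 only, and 0.974% of all windows hold it. None of the 10 windows held the E box CACGTG (5.59% of all windows), the box TATAAA (12.9%) or a direct repeat of the nuclear receptor motif spaced by 1 base (0.0508%) or by 4 bases (0.00299%). A match gives the letters of this window and is not a site shown to be bound.

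RNA of each library was made into 3′ end libraries, whose counts do not grow with transcript length, so members can be set side by side in counts per M counts of the library (CPM). Depth ran from 5.01 to 8.74 M counts in replanted libraries and was 8.49 M in NT, and ribosomal RNA entries took 9.81% to 34.1% and 2.93% of them. Tooth and ligament markers (13 genes in the files, among them Col1a1, Sparc, Ibsp and Postn) were low in 6 libraries. Their summed level was 7232, 13445 and 2747 CPM in DR day 3 replicates 1, 2 and 3 and 11469, 10981 and 706 CPM in IR day 3 replicates 3, 4 and 6. In the other replanted libraries it ran from 27874 to 110686 CPM, and in NT it was 171948 CPM. Leukocyte markers summed to 93.6 CPM in IR day 3 replicate 6, and Postn, a ligament matrix gene, stood at 4.49 CPM there, against 2793 CPM in NT.

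The 10 genes were high together in 7 of the 24 replanted libraries. Their summed share of all counts was 0.619% in DR day 7 replicate 5, and 2.23%, 2.13%, 3.18%, 0.770% and 0.353% in DR day 3 replicates 1, 2, 3, 5 and 6. It was 3.65% in IR day 3 replicate 6. In every other library the share lay between 0.00554% and 0.0147%, DR day 3 replicate 4 (0.0135%) and all 6 IR day 7 libraries included, and it was 0.00624% in NT. The mean share at day 7 was 0.110% ± 0.249 for DR and 0.00808% ± 0.00228 for IR, and at day 3 it was 1.45% ± 1.25 for DR and 0.616% ± 1.49 for IR (SD over 6 libraries each). Of the 7 libraries, 4 were among the 6 low in tooth markers, while IR day 3 replicates 3 and 4 were low in tooth markers with a member share of 0.00648% and 0.00659%. In whole-tissue RNA, more cells of a type and more RNA per cell cannot be told apart.

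**Figure D1:**
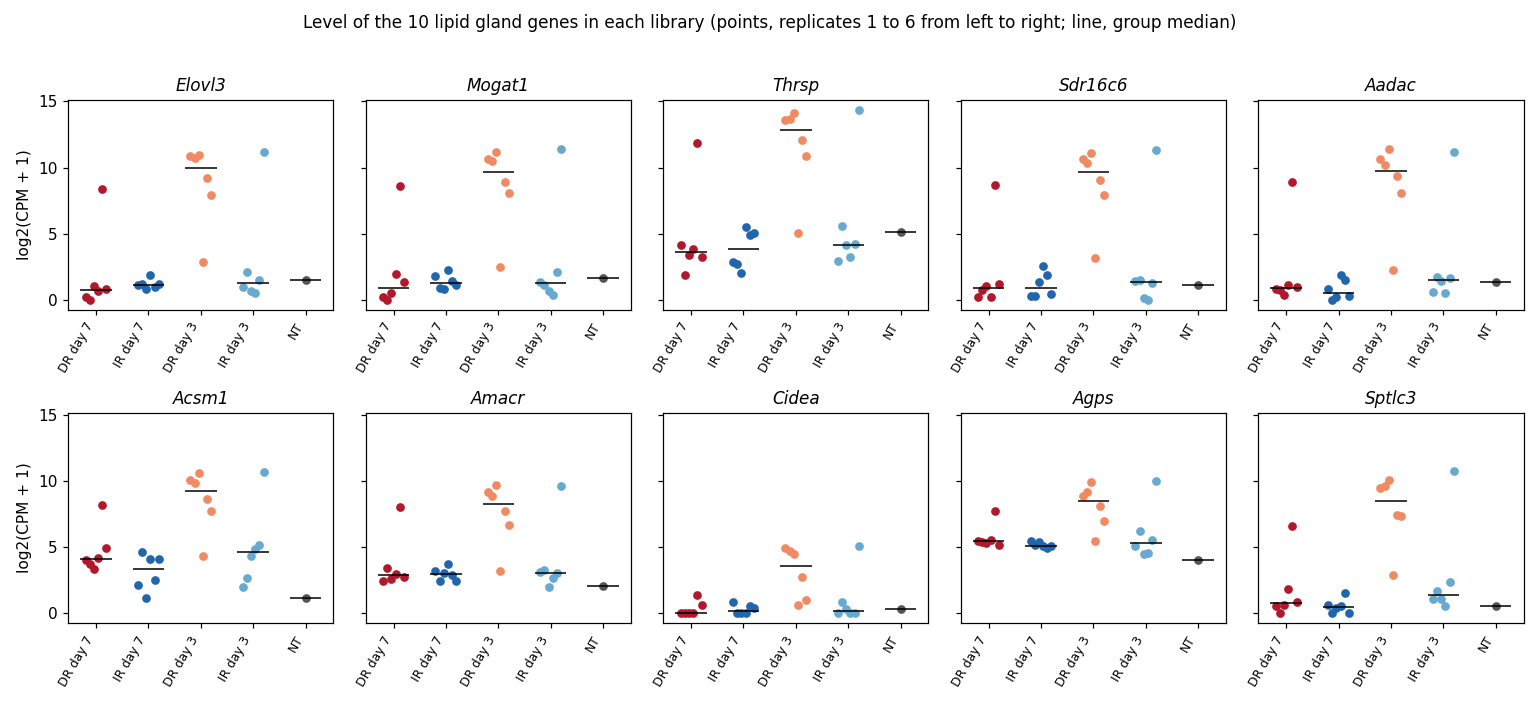
Level of each member as log2(CPM + 1) in each library (points, replicates 1 to 6 from left to right) with the group median (line), in DR day 7, IR day 7, DR day 3, IR day 3 and NT. In every panel 1 DR day 7 point, 5 DR day 3 points and 1 IR day 3 point stand above all the rest, although the Cidea and Agps points lie closer together than those of Thrsp. For Cidea, DR day 3 replicate 6 (7 counts) and DR day 7 replicate 5 (10 counts) are not set apart from IR day 7 replicate 1 (6 counts).

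Elovl3 and Thrsp act in chain building. Elovl3 lengthens saturated and monounsaturated acyl chains, and Thrsp, known as Spot 14, is a nuclear protein that goes with the expression of lipogenic enzymes. The lowest, median and highest Thrsp levels were 2.80, 11.6 and 3719 CPM in DR day 7, 3.11, 17.8 and 44.5 CPM in IR day 7, 33.4, 8522 and 17981 CPM in DR day 3 and 6.64, 17.4 and 21431 CPM in IR day 3, against 34.8 CPM in NT. The highest value, in IR day 3 replicate 6, stood for 124146 counts. Elovl3 had 0, 0.720 and 341 CPM in DR day 7 (lowest, median and highest), 0.779, 1.25 and 2.66 CPM in IR day 7, 6.52, 1125 and 2020 CPM in DR day 3 and 0.470, 1.46 and 2338 CPM in IR day 3, against 1.88 CPM in NT. For Thrsp each group overlapped the others. For Elovl3 they did so too, except that every DR day 3 library lay above every IR day 7 library. The same held for Mogat1, Sdr16c6, Aadac, Agps and Sptlc3. Those groups differ in both drying time and day, and the share of all genes apart in this way was not counted. DR day 3 held 1 low library for Thrsp and Elovl3, and DR day 7 and IR day 3 held 1 high library each. The 0 of Elovl3, in DR day 7 replicate 2, allows up to 0.526 CPM (3 counts, counting error only).

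Mogat1 and Cidea act on neutral lipid. Mogat1 joins an acyl chain to monoacylglycerol, and Cidea coats lipid droplets and helps them to grow. Mogat1 reached 385 CPM in DR day 7 replicate 5, where the other DR day 7 libraries had 0 to 3.00 CPM, and no IR day 7 library passed 3.99 CPM. In DR day 3 its lowest, median and highest levels were 4.66, 964 and 2388 CPM, in IR day 3 they were 0.313, 1.42 and 2700 CPM, and NT had 2.24 CPM. Cidea was the least abundant member, with at most 192 counts in any library. Its levels were 0, 0 and 1.56 CPM in DR day 7 (lowest, median and highest), 0, 0.176 and 0.801 CPM in IR day 7, 0.532, 13.4 and 30.2 CPM in DR day 3 and 0, 0.123 and 33.1 CPM in IR day 3. NT held 2 Cidea counts, and 4 DR day 7, 3 IR day 7 and 3 IR day 3 libraries held 0. In 14 of the 25 libraries Cidea had 3 counts or fewer, a depth at which its level could not be told from 0.

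Agps makes the ether bond of ether lipids in peroxisomes, and Sptlc3 is a subunit of serine palmitoyltransferase, which starts sphingolipid synthesis. Agps was detected in all 25 libraries. It had 34.3, 42.1 and 210 CPM in DR day 7 (lowest, median and highest), 29.8, 33.7 and 42.6 CPM in IR day 7, 44.2, 369 and 952 CPM in DR day 3 and 20.8, 39.3 and 1007 CPM in IR day 3, against 15.4 CPM in NT. All 24 replanted libraries lay above NT for Agps, where NT is 1 library with 131 counts. The share of all genes for which this holds was not counted. Sptlc3 had 0, 0.706 and 94.3 CPM in DR day 7, 0, 0.378 and 1.91 CPM in IR day 7, 6.66, 447 and 1088 CPM in DR day 3 and 0.470, 1.68 and 1723 CPM in IR day 3, against 0.471 CPM in NT. For both genes the same 7 libraries held the highest levels.

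Acsm1 activates medium-chain fatty acids to acyl-CoA, and Amacr turns the stereochemistry of branched-chain acyl-CoA so that it can be oxidised. Acsm1 had 9.04, 16.2 and 286 CPM in DR day 7 (lowest, median and highest), 1.25, 10.4 and 23.4 CPM in IR day 7, 19.0, 654 and 1558 CPM in DR day 3 and 2.89, 23.7 and 1593 CPM in IR day 3, against 1.30 CPM in NT. In contrast to Elovl3 and Sdr16c6 it was readily counted in libraries where the 10 genes together were low, with 34.2 CPM in IR day 3 replicate 5 and 29.4 CPM in DR day 7 replicate 6. Amacr had 4.46, 6.44 and 265 CPM in DR day 7, 4.57, 6.81 and 12.6 CPM in IR day 7, 8.12, 337 and 833 CPM in DR day 3 and 3.08, 7.38 and 800 CPM in IR day 3, against 3.18 CPM in NT. All but 1 of the 24 replanted libraries lay above NT for each of these genes. NT is 1 library, with 11 counts of Acsm1 and 27 of Amacr. The share of all genes with as many libraries above NT was not counted, so no rise particular to these genes is read from this.

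Aadac is an esterase that removes acyl groups from lipids, and Sdr16c6 belongs to the short-chain dehydrogenases and lies beside Sdr16c5. Aadac had 0.343, 0.903 and 480 CPM in DR day 7 (lowest, median and highest), 0, 0.518 and 2.81 CPM in IR day 7, 3.86, 913 and 2770 CPM in DR day 3 and 0.470, 1.96 and 2351 CPM in IR day 3, against 1.65 CPM in NT. Sdr16c6 had 0.165, 0.922 and 406 CPM in DR day 7, 0.267, 0.955 and 4.88 CPM in IR day 7, 8.25, 932 and 2184 CPM in DR day 3 and 0, 1.62 and 2532 CPM in IR day 3, against 1.18 CPM in NT. Outside the 7 libraries the highest levels were 3.86 CPM for Aadac and 8.25 CPM for Sdr16c6, both in DR day 3 replicate 4. In the GRCr8 annotation Aadac overlaps Aadacl2, Elovl3 overlaps Pitx3, and Acsm1 overlaps Pdilt and RGD1559600. Mogat1, Agps and Sptlc3 overlap noncoding genes: LOC134480390 for Mogat1, LOC134486388 and a transfer RNA for Agps, and LOC120101715 for Sptlc3. The strand setting of the counting is not given in the sources used here, so counts of all these members could include reads of their partners.

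The ranking of libraries was shared. The same 7 libraries were the highest for all 10 members, and the same 4 (DR day 3 replicates 1, 2 and 3 and IR day 3 replicate 6) were the highest of those. For Cidea, DR day 3 replicate 6 and DR day 7 replicate 5 had 7 and 10 counts, too few to set them apart from IR day 7 replicate 1 with 6. Of the 10 members, 8 peaked in IR day 3 replicate 6, while Aadac and Amacr peaked in DR day 3 replicate 3. Thrsp was the fourth most counted of all genes in IR day 3 replicate 6, with 2.14% of its counts. These 7 libraries were picked out by the members' own level, so this is a description of single libraries and no comparison of conditions.

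Within those libraries the members kept similar proportions. Thrsp gave 53.7% to 60.5% of the 10-gene total. Sdr16c6 gave 6.30% to 7.14%, Mogat1 6.22% to 7.75%, Elovl3 5.51% to 8.59%, Aadac 5.49% to 8.71% and Acsm1 4.31% to 5.85%. Agps ran from 2.09% to 3.54%, Amacr from 2.19% to 4.29% and Sptlc3 from 1.52% to 4.72%. The widest relative range was that of Cidea, at 0.0253% to 0.136%. Against Elovl3, the ratio of counts ran from 0.805 to 1.19 for Sdr16c6 and from 0.824 to 1.18 for Mogat1, while that of Sptlc3 ran from 0.276 in DR day 7 replicate 5 to 0.737 in IR day 3 replicate 6. Amacr to Elovl3 was highest in DR day 7 replicate 5 (0.777), the only high library of day 7, and lay between 0.280 and 0.413 in the other 6. Where the total was low the make-up differed: Thrsp gave 4.18% and Agps 61.1% in DR day 7 replicate 2, and Thrsp gave 24.7% and Agps 32.7% in DR day 3 replicate 4, against 55.8% and 24.7% in NT.

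**Figure D2:**
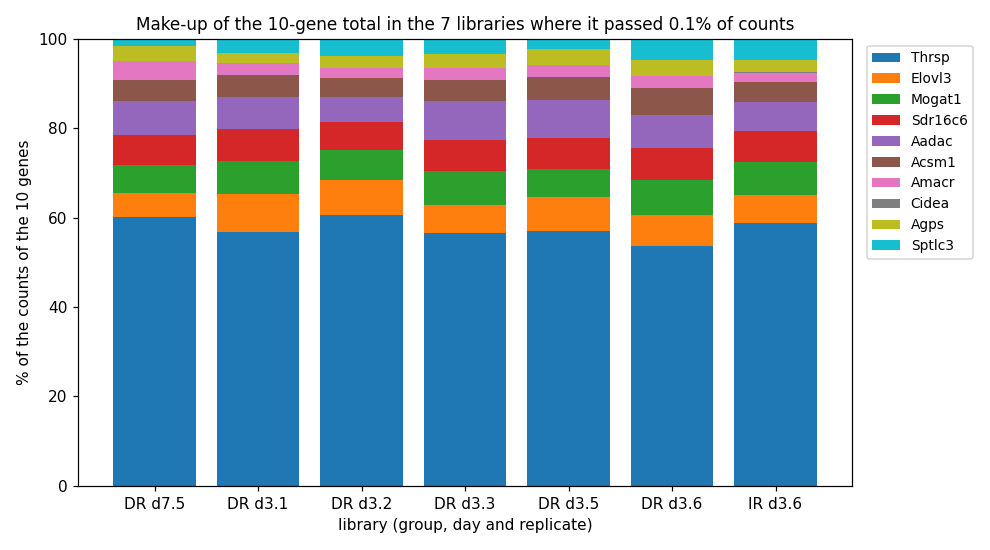
Percent of the summed counts of the 10 genes given by each gene (stacked, y axis) in the 7 libraries where their total passed 0.1% of counts (x axis, 1 bar per library). Thrsp fills 53.7% to 60.5% of each bar, and the other segments keep a similar order.

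Co-variation was taken as Spearman's rho of log2 CPM between members, as a description, since the libraries fall into 2 separate sets and share their depth scaling. Over the 7 libraries rho of the 45 pairs ran from 0.79 to 1 with a median of 0.96. Over the other 17 replanted libraries it ran from -0.41 for Sdr16c6 with Acsm1 to 0.75 for Thrsp with Aadac, with a median of 0.32. Many counts there were near 0, with medians of 0 CPM for Cidea, 0.572 for Sptlc3, 0.826 for Aadac and 1.14 for Sdr16c6. A low rho in those libraries thus cannot tell weaker co-variation from counting error. Over all 24 libraries rho ran from 0.50 to 0.91 with a median of 0.76, which includes the gap between the 2 sets. Along the first principal component of the 24 libraries, which held 39.5% of the variance, Aadac, Thrsp, Elovl3, Mogat1, Sptlc3 and Sdr16c6 ranked 3, 5, 6, 7, 8 and 10 of 11492 genes by loading, while Acsm1, Amacr, Cidea and Agps ranked 34, 103, 151 and 565.

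Ratios to the single NT library followed the group means and so the few high libraries. Each is the log2 ratio of the group's mean CPM to the NT level after adding 5 CPM to both, which understates the change of low genes. In DR day 7 they ran from 0.03 for Cidea to 3.99 for Thrsp, and 9 of 10 members were past 1, where 7.31% of genes were. In IR day 7 they ran from -0.66 for Thrsp to 1.33 for Acsm1, the 1 member past 1 (5.3% of genes). DR day 3 gave 1.85 for Cidea to 7.70 for Thrsp and IR day 3 gave 1.03 for Cidea to 6.49 for Thrsp, with 10 of 10 members past 1 in each (11.3% and 7.92% of genes). With medians in place of means, 10 members stayed past 1 in DR day 3 and 2 in each of DR day 7 and IR day 3, where Elovl3 came to -0.27 and -0.09.

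The effect of drying was tested at day 7 first. In DR against IR at day 7 no member was called by edgeR's quasi-likelihood test at a Benjamini-Hochberg adjusted p under 0.05, nor was any of the 11492 genes (0%). All 10 log2 fold changes were positive, with a median of 4.82 over members and 0.00 over all genes. An unadjusted p under 0.05 was found for 6 members, where 1.79% of genes had one. The members were chosen on these libraries and moved together, so such counts are descriptions, here and in the contrasts below. Aadac had the largest log2 fold change, 6.21 ± 2.38 (SE, edgeR adjusted p = 0.99995). With only the day 7 groups, 5 members passed the filter on low counts: Mogat1, Thrsp, Acsm1, Amacr and Agps. Aadac and the other members passed it through the day 3 libraries. With a replicate block as well, those 5 ran from 0.49 to 1.55. Aadac had a mean log2 CPM of 1.50 ± 3.56 in the DR libraries and -0.19 ± 1.34 in the IR libraries (SD, n = 6 each). All members overlapped between the groups, while 0.0348% of genes had every DR library above every IR library. Agps (0.88 ± 0.83, SE) and Cidea (0.32 ± 1.67) had the smallest values. The result turned on DR day 7 replicate 5: without it the changes ran from -1.22 for Elovl3 to 0.75 for Sptlc3, and 3 of 10 were positive.

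At day 3 the DR level was above the IR level in the fitted means of all 10 members, again with none called. In DR against IR at day 3, log2 fold changes ran from 0.46 ± 1.65 (SE) for Sptlc3 to 1.17 ± 1.87 for Aadac, with a median of 0.92 over members and -0.04 over all genes (edgeR adjusted p 0.983 to 0.990; 0% of genes called). No member had an unadjusted p under 0.05, where 2.72% of genes had. All members overlapped between the groups, and 0% of genes had every DR day 3 library above every IR day 3 library. Elovl3 had a mean log2 CPM of 8.70 ± 3.04 in the DR libraries and 2.49 ± 4.43 in the IR libraries (SD, n = 6 each), a wider gap than its fitted fold change of 1.12, which follows the group means of counts. Without IR day 3 replicate 6 all 10 members were called higher in DR, among 576 of 11627 genes called (4.95%). Their log2 fold changes then ran from 3.19 for Agps to 9.75 for Sdr16c6 (edgeR adjusted p 0.00753 to 0.0191). That library was the highest for 8 of the 10 members, which were chosen on these same libraries. The calls without it follow the members' own level and are a description, no test of drying. Without all 6 libraries low in tooth markers, 9 members could be tested and none was called (1.57 to 7.50, edgeR adjusted p = 0.909 for each), nor was any gene (0%).

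**Figure D3:**
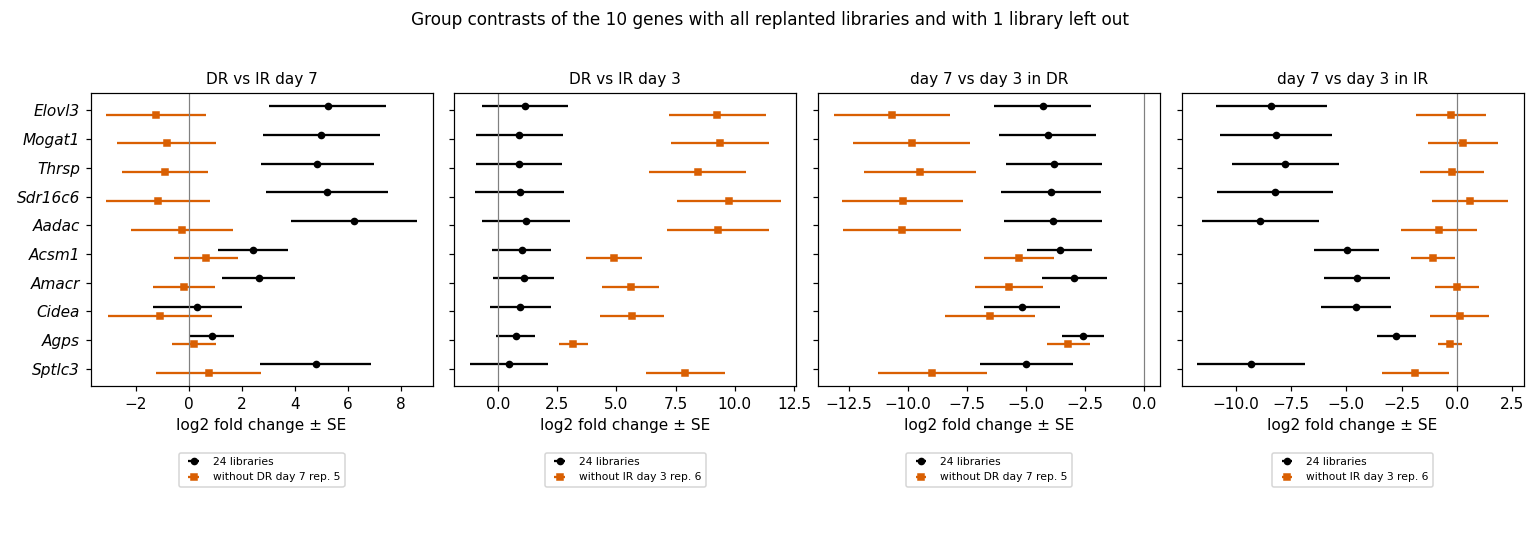
Log2 fold change ± SE (x axis) of each member (y axis) in 4 contrasts of edgeR, with all 24 replanted libraries (black circles) and without 1 library (orange squares; DR day 7 replicate 5 or IR day 3 replicate 6, as the legends say). Leaving out DR day 7 replicate 5 brings the day 7 drying contrast to between -1.22 and 0.75, and leaving out IR day 3 replicate 6 lifts the day 3 drying contrast to between 3.19 and 9.75.

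Day 7 was then set against day 3. In DR, the fitted level of all 10 members was lower at day 7, with log2 fold changes of -2.60 ± 0.88 (SE) for Agps to -5.19 ± 1.61 for Cidea and a median of -3.90, against 0.00 over all genes. None was called (edgeR adjusted p 0.0978 to 0.272), as against 0.0087% of genes, and 6 had an unadjusted p under 0.05, where 22.5% of genes had. The day 7 libraries averaged 4.57 ± 3.60 log2 CPM of Thrsp, against 11.53 ± 3.29 in the day 3 libraries (SD, n = 6 each). Each member overlapped between the 2 days, since DR day 7 replicate 5 was high and DR day 3 replicate 4 was low, whereas 1.08% of genes had every DR day 7 library below every DR day 3 library. Without IR day 3 replicate 6, which is in neither group of this contrast, Acsm1, Amacr, Cidea, Agps and Sptlc3 were called lower, and 12.2% of 11627 genes were called in either direction. DESeq2 called 4 members lower at day 7, and 9.26% of genes in either direction. With only the DR groups, 9 members passed the filter, all but Cidea.

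In IR the fitted level of all 10 members was again lower at day 7, and this rested on 1 library. Log2 fold changes ran from -2.74 ± 0.88 (SE) for Agps to -9.32 ± 2.44 for Sptlc3, with a median of -7.98 against -0.09 over all genes. None was called (edgeR adjusted p 0.0935 to 0.136), as against 0.139% of genes, although all 10 had an unadjusted p under 0.05, where 20.4% of genes had. The day 7 libraries averaged -0.66 ± 1.09 log2 CPM of Sptlc3, against 2.61 ± 4.15 in the day 3 libraries (SD, n = 6 each). The days overlapped for all members, while 0.566% of genes had every day 7 library below every day 3 library. Without IR day 3 replicate 6 the changes ran from -1.87 for Sptlc3 to 0.60 for Sdr16c6, 4 of them positive, and none was called. With only the IR groups, 7 members passed the filter, and Elovl3, Cidea and Sptlc3 did not. DESeq2, on all libraries, called 9 members lower at day 7, and 6.51% of genes in either direction. The interaction asks whether DR differs from IR by more at day 7 than at day 3. It called no member and no gene (0%), with 9 of 10 member values positive, a median of 4.02 and no unadjusted p under 0.05, where 3.01% of genes had one. Its direction was not stable: 1 of 10 was positive without DR day 7 replicate 5, and 0 of 10 without IR day 3 replicate 6, with limma-voom or with a replicate block.

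Of the 10 other genes whose order over the 24 libraries was closest to the members' mean, 9 are named here. They were LOC100360933, Bag4, Ptgds, Hsd17b12, Sptlc1, RGD1565002, Rbp7, Anapc15 and Lyplal1, with Spearman's rho of 0.93 to 0.86 among 7720 genes. Rbp7, a retinol-binding protein, reached 5320 CPM in DR day 7 replicate 5, 36884 CPM in DR day 3 replicate 3 and 47301 CPM in IR day 3 replicate 6, against 30.6 CPM in NT. Sptlc1, the obligate partner of Sptlc3 in serine palmitoyltransferase, had 1052, 4324 and 5669 CPM in the same libraries, against 80.9 CPM in NT, and Hsd17b12, which carries out the reduction step of chain elongation, had 419, 1886 and 2490 CPM, against 71.5 CPM. Ptgds, prostaglandin D2 synthase, had 6678 CPM in IR day 3 replicate 6, against 27.8 CPM in NT. Anapc15 and Bag4 shared the order at a far smaller scale, with at most 67.5 and 49.4 CPM in any library. None of the 9 was called in any of the 5 contrasts.

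**Figure D4:**
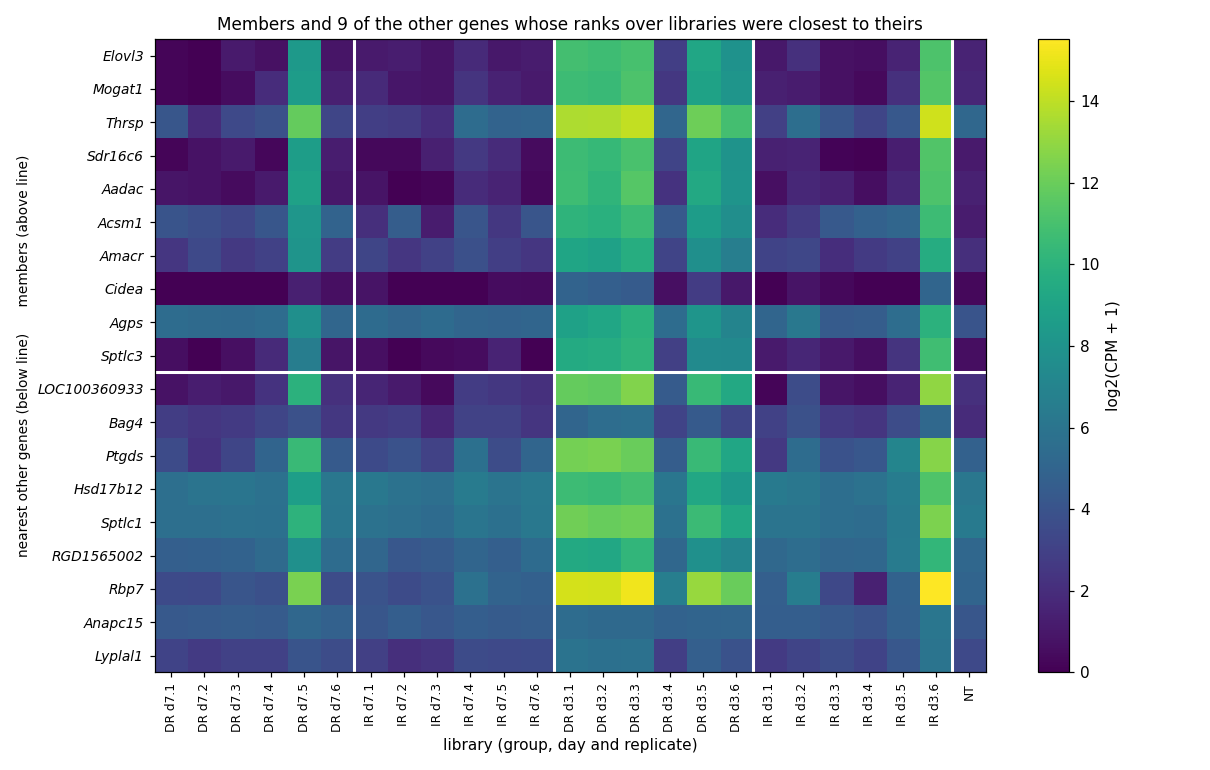
Level as log2(CPM + 1) (colour) of the 10 members (above the white line) and 9 of the 10 other genes closest to them (below it) in each library (columns, by group and replicate, NT last). The bright columns are DR day 7 replicate 5, DR day 3 replicates 1, 2, 3, 5 and 6 and IR day 3 replicate 6.

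Relatives of the members by name did not all follow them. Elovl1, which lengthens very long chains, had 1458 CPM in DR day 7 replicate 5, 6635 CPM in DR day 3 replicate 3 and 8399 CPM in IR day 3 replicate 6, against 83.0 CPM in NT. Aadacl3 had 36.8, 143 and 184 CPM in the same libraries and 0 counts in NT. Sptlc2, the alternative to Sptlc3 in the enzyme, had 42.5, 6.27 and 5.01 CPM there, against 26.6 CPM in NT, and ran from 5.01 to 42.5 CPM over the 7 libraries. Sdr16c5, the neighbour of Sdr16c6, ran from 5.65 to 38.3 CPM over the 7 libraries, and NT had 18.0 CPM. Acsm4, next to Acsm1, was uneven, with 1.09 CPM in DR day 7 replicate 5, 63.9, 74.4, 5.14, 17.3 and 1.19 CPM in DR day 3 replicates 1, 2, 3, 5 and 6 and 0 in IR day 3 replicate 6, against 2.83 CPM in NT. Its highest level, 262 CPM, was in IR day 3 replicate 5, where the 10 genes were low.

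Wider lists of lipid genes were counted in the same fit. Of 18 tested genes of fatty acid synthesis and elongation, all 18 had a negative log2 fold change for day 7 against day 3 in both DR (median -2.35) and IR (median -2.17). Only Scd2, a desaturase, was called, in IR (-0.74 ± 0.15, SE, edgeR adjusted p = 0.0437). Scd2 had no more than 242 CPM in any library. The summed level of the list was 636, 672 and 4395 CPM in DR day 7 (lowest, median and highest), 589, 662 and 837 CPM in IR day 7, 665, 10660 and 16931 CPM in DR day 3 and 534, 784 and 21333 CPM in IR day 3, against 714 CPM in NT. The 21333 CPM was that of IR day 3 replicate 6, and the fold changes of this list were not examined without that library. Over all genes the medians for day 7 against day 3 were 0.00 in DR and -0.09 in IR. The share of all genes with a negative value was not counted. Fasn, fatty acid synthase, had 2128, 1951 and 1154 CPM in DR day 3 replicates 1, 2 and 3 and 1985 CPM in IR day 3 replicate 6, against 50.5 CPM in NT.

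Of 15 peroxisomal and branched-chain oxidation genes, all 15 were negative for day 7 against day 3 in DR (median -2.02) and in IR (median -1.67). None was called, and the medians over all genes were 0.00 and -0.09. The summed level of this list was 378, 444 and 957 CPM in IR day 7 (lowest, median and highest). In IR day 3 it was 417, 795 and 7318 CPM, the last in replicate 6, which was also high for the members. The fold changes of this list were not examined without that library. Hsd17b4, the bifunctional enzyme of peroxisomal oxidation, had 0.75 ± 0.62 (SE, edgeR adjusted p = 0.983) for drying at day 3. The 17 genes of triacylglycerol, wax ester and droplet handling had 12 negative values in DR and 10 in IR (medians -0.65 and -0.17), and the 8 of ether lipid synthesis had 6 and 7 (medians -1.47 and -0.59). The 18 sphingolipid genes were split, with 7 and 9 negative, several close to 0, and medians of 0.07 and 0.01, while Kdsr, which acts right after serine palmitoyltransferase, had 5769 CPM in IR day 3 replicate 6 against 69.1 CPM in NT. None of these genes was called in any contrast. Acsm3 and Acsm4, of the 3 tested acyl-CoA synthetases of medium chains, had -0.99 ± 0.50 and -1.25 ± 1.53 (SE) for drying at day 3.

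Other genes named for sebaceous or Harderian glands were partly present. Of 24 in the files 15 could be tested, and 0 were called in each contrast. Their summed level was at most 2232 CPM in DR day 7, 1610 CPM in IR day 7, 6425 CPM in DR day 3 and 8187 CPM in IR day 3, against 232 CPM in NT. Plin2, a droplet coat protein, had 1507 CPM in DR day 7 replicate 5, 5120 CPM in DR day 3 replicate 3 and 6969 CPM in IR day 3 replicate 6, against 43.2 CPM in NT. It gave most of the sum in the last 2 libraries (6425 and 8187 CPM). The sums overlapped, with 1584 CPM in DR day 3 replicate 6, a high library for the members, and 1610 CPM in IR day 7 replicate 1. For day 7 against day 3, 11 of the 15 tested genes were negative and 4 positive in DR, and 10 were negative and 5 positive in IR. Awat1, Awat2 and Dgat2l6, the wax ester and acylglycerol enzymes of sebaceous glands, had 0 counts in all 7 high libraries, which allows at most 0.518 CPM in any of them. Mc5r, a melanocortin receptor of both glands, was listed at 1.72, 5.63 and 11.4 CPM in the same 3 libraries and at 0 in NT.

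Genes of porphyrin and heme synthesis, a list added after the closest genes had been seen, summed to at most 1169 CPM in DR day 7, 675 CPM in IR day 7, 3874 CPM in DR day 3 and 5090 CPM in IR day 3, against 1087 CPM in NT. The red-cell form Alas2 had 4.49 CPM in IR day 3 replicate 6, against 371 CPM in NT, and Alas1 had 1750 CPM there, against 44.6 CPM in NT. Markers of fat cells (14 genes in the files) summed to at most 345 CPM in DR day 7, 340 CPM in IR day 7, 524 CPM in DR day 3 and 1201 CPM in IR day 3, against 370 CPM in NT. The highest sum was that of IR day 3 replicate 6, where Fabp4, a fatty acid binding protein, gave 1182 CPM, against 65.6 CPM in NT. Adipoq, the fat-cell hormone adiponectin, had 6.10 CPM in DR day 7 replicate 5, 7.88 CPM in DR day 3 replicate 3 and 0 in IR day 3 replicate 6, against 28.3 CPM in NT. Plin1, which coats fat-cell droplets, stayed at or under 2.07 CPM in every library, and Ucp1, the marker of brown fat, at or under 0.173 CPM.

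**Figure D5:**
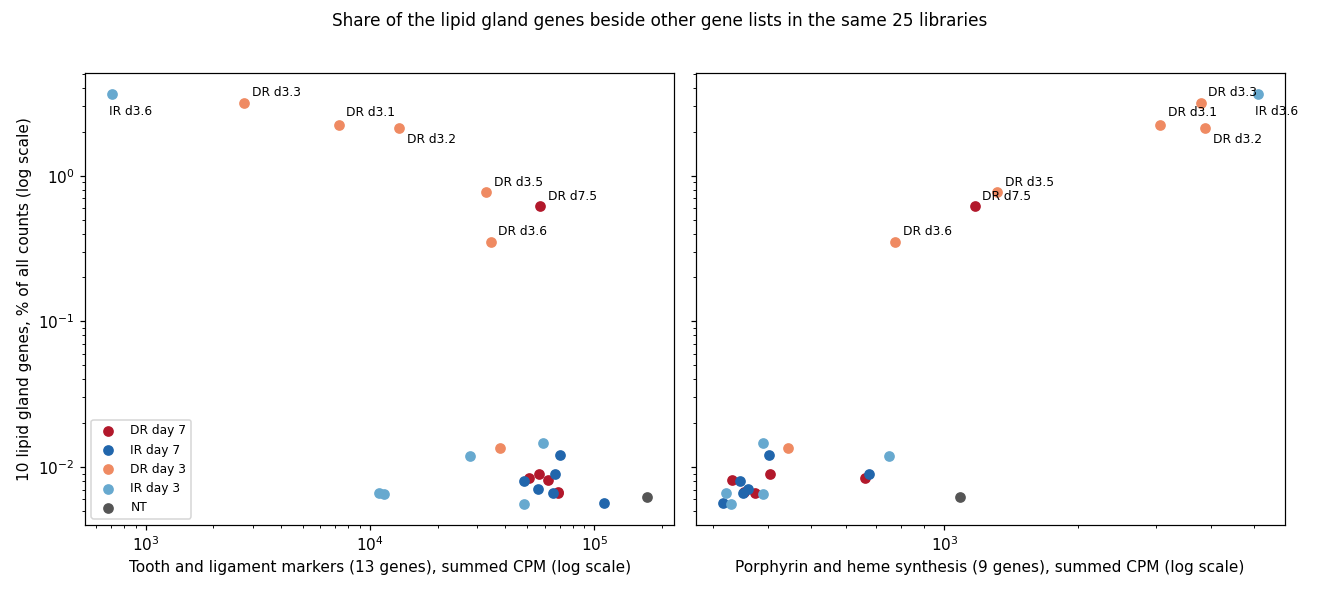
Percent of all counts given by the 10 genes (y axis, log scale) against the summed CPM (x axes, log scale) of the tooth and ligament markers (left) and of the porphyrin and heme synthesis genes (right), 1 point per library, coloured by group. The 7 labelled libraries have 0.353% or more; at the left IR day 3 replicate 6 has the lowest tooth marker sum, 706 CPM, and at the right the highest porphyrin sum, 5090 CPM.

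Markers of other tissues near the upper molars also differed between libraries. Nasal gland markers summed to at most 69094 CPM in DR day 7, 93488 CPM in IR day 7, 54508 CPM in DR day 3 and 279392 CPM in IR day 3, against 28788 CPM in NT, with the highest value in IR day 3 replicate 4, where the 10 genes took 0.00659% of counts. Skeletal muscle markers reached 12278 CPM in DR day 3 replicate 5 and 9620 CPM in DR day 3 replicate 1, but 43.0 CPM in IR day 3 replicate 6. All 14 muscle genes had a positive log2 fold change for drying at day 3 (median 2.55; Pvalb 3.43 ± 1.11, SE, edgeR adjusted p = 0.983), as the 10 members had. For drying at day 7 the directions were opposite. There 13 of the 14 muscle genes were negative (median -3.16), while all 10 members were positive (median 4.82). The member values at day 7 turned on DR day 7 replicate 5. Hepatocyte markers summed to no more than 250 CPM in any library, and Alb, serum albumin, had at most 3.11 CPM in the 7 libraries. The 11 tested tooth and ligament markers all had a negative log2 fold change for DR against IR at day 3 (median -0.38), with none called. The part of these tissues in the levels of the 10 genes was not tested.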

How the data were processed

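RNA of 24 replanted and 1 untreated library was measured. Per the labels' protocols, RNA was extracted with Trizol and 500 ng went into each Lexogen QuantSeq library. The deposited values are raw read counts per gene symbol, 1 table per library, and the submitters' processing notes name Bowtie2 and edgeR with the builds mm10 and rn6 without saying which served which step. Of the counting tool, the strand setting and any filter nothing is stated, these being not given in the sources used here. Each table held 17048 entries, and of 149 repeated symbols (no member among them) the entry with the highest total was kept. The counts were fitted in R 4.3.3 with edgeR 4.0.16: TMM scaling, filterByExpr by group, robust quasi-likelihood fit of 4 group means over 24 libraries (20 residual degrees of freedom), two-sided tests and Benjamini-Hochberg adjustment over 11492 genes, called under 0.05. The step was tested on simulated counts with the same spread for every gene and no outlying library. The members here have single outlying libraries, a case that the simulation did not cover. NT has 1 library and entered no test. Levels are CPM of the raw library total, group means in tests are log2 CPM with a prior count of 2, and upper limits for a count of 0 (3 counts) cover counting error only, since no molecular identifiers are named. DESeq2 1.42.0 and limma 3.58.1 served as alternatives, with other scalings and filters and each library left out in turn. No libraries were identical; the most alike of 60 replicate pairs had a chi-square of 24.6 per degree of freedom.

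The 10 members and the gene lists were chosen with earlier results of these data known. Named genes were all members, for each list up to 4 called genes per contrast or the 2 of smallest p for drying at day 3, the 10 genes nearest by rank correlation (average log2 CPM of 3 or more), and relatives and neighbours of members. Other genes with values, such as Fasn, Kdsr, Plin2, Mc5r, Alas1, Alas2, Adipoq and Alb, were named after their values had been seen. Replicate numbers 1 to 6 are shared by the groups. Deviations of same-numbered DR and IR libraries correlated at 0.214 to 0.721 at day 7, in 6 of 6 pairs. At day 3 the correlations ran from -0.415 to 0.214, and between days from -0.494 to 0.337. The labels do not say that the numbers mark shared animals, so the main fit has no block and its values are unpaired. A replicate block served as an alternative. Results of some genes that this rule names are not reported here.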

Additional observations from a re-analysis of the deposited data

Results flagged for a closer look

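Of 44 sets of 6 values (10 members and their summed share in 4 groups), 23 held a library far from the other 5 by Dixon's gap. Chance flags about 1 in 20 sets of values that were not selected, but the members were chosen on values of these same libraries, so the count is a description and no test. The sets are not independent, since the members moved together and 3 libraries account for all of them. DR day 7 replicate 5 was high for Elovl3 (8.23 log2 CPM), Mogat1 (8.40), Thrsp (11.67), Sdr16c6 (8.48), Aadac (8.72), Acsm1 (7.97), Amacr (7.86) and Agps (7.53). Its summed share was 0.619%, where the other DR day 7 libraries had 0.00666% to 0.00893%. DR day 3 replicate 4 was low for Elovl3 (2.92 log2 CPM), Mogat1 (2.46), Thrsp (5.23) and Aadac (2.20). IR day 3 replicate 6 was high for Elovl3 (11.41 log2 CPM), Mogat1 (11.62), Thrsp (14.61), Sdr16c6 (11.53), Aadac (11.42), Amacr (9.86), Cidea (5.28), Agps (10.20) and Sptlc3 (10.97). Its summed share was 3.65%, where the other IR day 3 libraries had 0.00554% to 0.0147%. The cause of these separations was not tested.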

How the results depend on the processing

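No member was called in any of the 5 contrasts with RLE size factors, no filter, ribosomal RNA entries left out, repeated symbols summed, limma-voom or, in the 4 contrasts of groups, only the groups compared. DESeq2 called 4 members lower at day 7 in DR and 9 in IR, with 1064 and 748 genes called in all, and no member for drying (3 genes at day 7, 0 at day 3, 11 for the interaction, where edgeR called 0). In edgeR 1 gene was called for day 7 against day 3 in DR and 16 in IR, and with only the groups compared 43 and 0. Leaving out 1 library at a time gave 0 to 10 called members for DR against IR at day 3 (10 without IR day 3 replicate 6), 0 to 5 for day 7 against day 3 in DR (5 without the same library) and 0 to 2 in IR (2 without IR day 3 replicate 1 and 1 without replicate 2). It gave 0 for the other 2 contrasts. Genes called in all ranged from 0 to 576, 1420 and 402 in those 3 contrasts. IR day 3 replicate 6 was the highest library for 8 of the 10 members, so the drying calls at day 3 without it are a description. The range of log2 fold changes for DR against IR at day 7 was -1.22 to 5.50 for Elovl3, -0.82 to 5.34 for Mogat1, -0.90 to 5.23 for Thrsp, -1.15 to 5.84 for Sdr16c6, -0.26 to 6.84 for Aadac, -0.18 to 2.88 for Amacr and -1.06 to 0.97 for Cidea, each lowest without DR day 7 replicate 5. For day 7 against day 3 in IR it was -8.54 to 0.28 for Mogat1, -8.88 to 0.60 for Sdr16c6, -4.77 to 0.0016 for Amacr and -5.15 to 0.14 for Cidea, each highest without IR day 3 replicate 6. With limma-voom, Cidea turned to -0.17 for DR against IR at day 7. Without the 6 libraries low in tooth markers, a choice made after seeing the data, Sdr16c6 turned to 0.026 for day 7 against day 3 in IR.

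With a replicate block, 0 members were called in each contrast, and members that passed the filter ran from 0.49 to 1.55 for DR against IR at day 7 (5 members), 2.27 to 8.96 at day 3 (9), -9.09 to -2.43 for day 7 against day 3 in DR (9) and -2.07 to -0.48 in IR (7). For the interaction, positive in 9 of 10 members, 0 of 10 were positive with the block, with limma-voom and without IR day 3 replicate 6, and 0 of 9 without those 6 libraries. The block changed no member's call. For day 7 against day 3 in IR, the block was fitted on only those groups. There the median difference of a gene's log2 fold change from the main fit was 0.10. With only those groups and no block it was 0.026. In 3 of 6 pairs at day 7, and in none at day 3, a DR library correlated best with the IR library of its own number. Of the ratios to NT, 24 values moved by more than the spread between libraries, mostly with medians in place of means. The causes of these changes were not tested. Depth was lowest for Cidea, which had 3 counts or fewer in 14 of 25 libraries and at most 192.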
